A study of Coprinopsis cinerea AmutBmut pab1-1 with 7 samples.

Results

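The HMG box genes examined here are 4 gene models of the mushroom *Coprinopsis cinerea*, CopciAB_188021, CopciAB_545459, CopciAB_477121 and CopciAB_142396 (named by the JGI protein ID after the prefix used in the study's annotation), of 14242 gene models counted by Quant-Seq. They were taken as a fixed list of protein IDs, and all 4 were found in the tables of estimated counts and of scaled values. Each carries a high mobility group (HMG) box in the domain annotation and stands in the study's table of transcription factors. That table lists genes that had passed the comparison of a mutant with the wild type in these same libraries. The direction and size of the differences from the wild type are therefore a description of these genes and not independent evidence. The direct comparison of the mutants rests on the same mutant libraries and is not independent of that choice either. Of the other genes with an HMG box, CopciAB_268422 is also in the table, and the rest are those that the table leaves out.

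The HMG box is a small helical domain that binds DNA in the minor groove and bends it. Some proteins with this domain recognize a sequence, such as the repressor Rox1 of *Saccharomyces cerevisiae* and the pheromone response factor Prf1 of *Ustilago maydis*, while others, such as Nhp6 and the mitochondrial protein Abf2 of *S. cerevisiae*, act as chromatin proteins with little sequence preference. In *C. cinerea*, HMG box genes are known from mutants in clamp cell formation (*pcc1*) and in cap expansion (*exp1*). The annotation used here does not tie any of the 4 genes to one of these names, so no role beyond the domain is given to them. Cre1 is a zinc finger repressor that in fungi keeps genes for the use of other carbon sources low while glucose is present.

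Mycelium of 2 mutants labelled as *cre1* deletions, Δ*cre1*-43 and Δ*cre1*-91 (2 replicates each), was compared with the wild-type strain AmutBmut *pab1-1* (3 replicates). All colonies were vegetative mycelium on cellophane over YMG medium with 0.2% glucose, kept dark at 28°C for 84 h. Each mutant is 1 transformant in which the *pab1* marker, introduced as a split cassette with Cas9 ribonucleoproteins, was to replace *cre1*. The mutants thus differ from the wild type by this marker too. The study reports PCR and sequencing of flanking fragments that placed *pab1* at the *cre1* locus in both. For Δ*cre1*-43 it obtained no good sequence from the marker side of the downstream fragment. The study also notes that a small fragment of *cre1* could still be amplified from both at a high number of PCR cycles. Its authors state that they are nonetheless confident of both deletions. They base this on the Quant-Seq results, in which genes of carbohydrate metabolism were higher in the mutants. Quant-Seq reads the 3′ ends of polyadenylated transcripts, so that a value stands for tags of a gene's 3′ end and is compared here within a gene only.

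The libraries held 6232853 to 10784958 assigned counts, and each mutant library held fewer than any wild-type library. For *cre1* itself (CopciAB_466792), the libraries labelled Δ*cre1*-43 had 58 and 69 counts and the libraries labelled Δ*cre1*-91 had 67 and 49, against 94.5, 81 and 122 in the wild type. By edgeR's quasi-likelihood test its log2 fold changes were -0.14 for Δ*cre1*-43 and -0.33 for Δ*cre1*-91 (standard error 0.27 for both, adjusted P = 0.851 and 0.495), and the first turned to 0.024 without wild-type replicate 3. A reduction was not detectable, and because a 400-bp stretch downstream of the coding sequence was counted with each gene, these counts cannot check the deletion. The mutant libraries are therefore called by their labels. The labels do not say whether replicates of a strain were separate cultures, so the tests measure the spread between these 7 libraries.

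In the JGI assembly Amut1Bmut1 *pab1-1* v1.0, the 4 genes lie on 4 different scaffolds. Protein ID 188021's gene model (CopciAB_188021) occupies scaffold 386 from 11354 to 14324 on the reverse strand, with 4 coding exons of 2385 bases together. Protein ID 545459's gene model (CopciAB_545459) occupies scaffold 209 from 33138 to 35309 on the forward strand, with 3 coding exons of 1671 bases. Protein ID 477121's gene model (CopciAB_477121) occupies scaffold 34 from 164339 to 166226 on the forward strand, with 5 coding exons of 1284 bases. Protein ID 142396's gene model (CopciAB_142396) occupies scaffold 270 from 16824 to 18759 on the reverse strand, with 3 coding exons of 1422 bases. In all 4 the counted interval includes a 400-bp 3′ overhang. No other gene model overlaps CopciAB_477121 or CopciAB_142396. The overhang of CopciAB_188021 shares 219 bases with CopciAB_187972 and that of CopciAB_545459 shares 277 bases with CopciAB_107791, each a downstream neighbour on the same strand, and reads in these shared bases cannot be told apart.

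In the libraries labelled Δ*cre1*-91, CopciAB_188021, CopciAB_545459 and CopciAB_477121 were above the wild type. In those labelled Δ*cre1*-43, CopciAB_188021 and CopciAB_477121 were above it too, the second by less than 2-fold in the fit. CopciAB_142396 lay below the wild type in all mutant libraries and was called lower under the label Δ*cre1*-43. A gene was called when its adjusted P value was at most 0.05 and its level differed at least 2-fold. Under the label Δ*cre1*-43, 2 of the 4 genes were called, 1 higher and 1 lower, where 6.97% of all genes were called, 4.82% higher and 2.16% lower. Under the label Δ*cre1*-91, 3 of the 4 were called, all 3 higher, where 8.32% of all genes were called and 4.97% were called higher. Libraries did not overlap with the wild type for 3 of the 4 genes under the first label and for 4 of the 4 under the second, which was so for 41.4% and 43.7% of all genes. The share of all genes with all 4 mutant libraries apart from the wild type is not given here, so nothing is read from such a separation. The median log2 fold changes of the 4 genes were 0.42 and 1.28, against 0 over all genes tested. Since the genes come from a list of called genes, nothing is read from these shares and medians. All 4 were detected in every library, with 8 to 449 counts, and no filter on low values was applied.

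**Figure D1:**
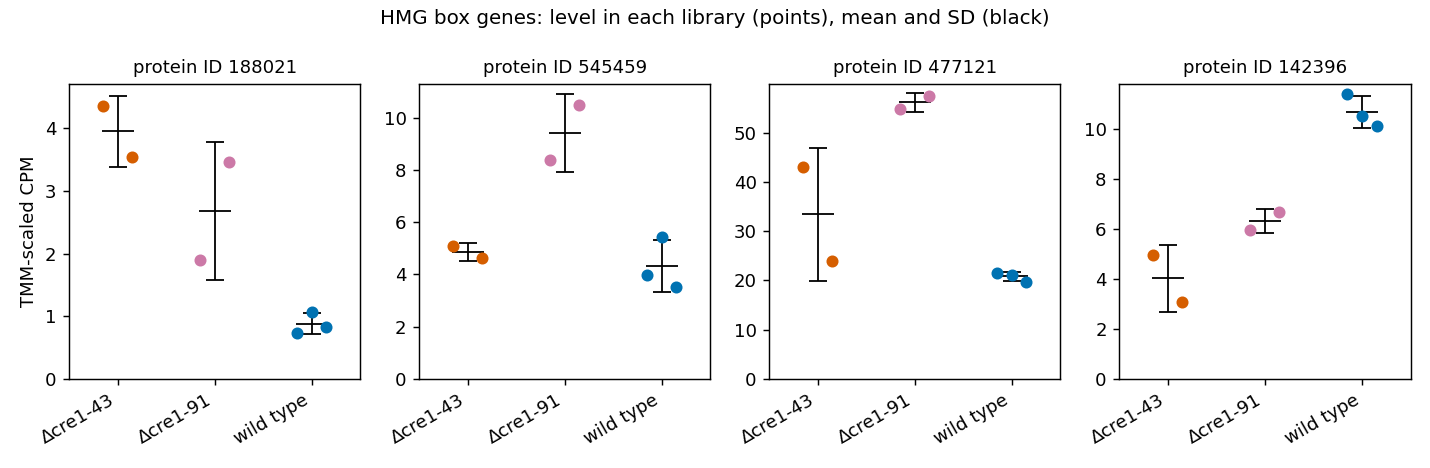
Levels of the 4 HMG box genes in each library, as counts per 1000000 counts of TMM-scaled library size (CPM, linear axis from 0), with 1 panel per protein ID; coloured points are libraries, the black dash is the group mean and the bars are the SD (n = 2, 2 and 3). For CopciAB_188021, CopciAB_477121 and CopciAB_142396 the 4 mutant libraries lie apart from the 3 wild-type libraries. Those of CopciAB_188021 lie at 1.90 to 4.36 against 0.739 to 1.07 CPM. Those of CopciAB_477121 lie at 23.9 to 57.5 against 19.7 to 21.5 CPM, and those of CopciAB_142396 at 3.07 to 6.65 against 10.1 to 11.4 CPM. With each mutant taken alone, libraries did not overlap with the wild type for 41.4% (Δ*cre1*-43) and 43.7% (Δ*cre1*-91) of all genes.

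CopciAB_188021 was higher than the wild type under both labels. Levels are given as CPM, the counts per 1000000 counts of library size after scaling by the trimmed mean of M values (TMM). It had 4.36 and 3.55 CPM in the libraries labelled Δ*cre1*-43, 1.90 and 3.46 CPM in those labelled Δ*cre1*-91, and 0.739, 1.07 and 0.835 CPM in the wild type. Every mutant library stood above every wild-type library, and replicate 1 of Δ*cre1*-91 was the lowest of the mutant libraries. The means were 3.95 ± 0.571 CPM for Δ*cre1*-43 and 2.68 ± 1.10 CPM for Δ*cre1*-91 (SD, n = 2 each), against a wild-type mean of 0.882 ± 0.171 CPM (SD, n = 3). The log2 fold change for Δ*cre1*-43 was 2.14 (standard error 0.47, edgeR adjusted P = 0.00370), or 4.42-fold with a 95% confidence interval from 2.23 to 8.78. It remained called in all 7 fits that left out 1 library.

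The rise of CopciAB_188021 under the label Δ*cre1*-91 was less firm. Its log2 fold change was 1.59 (standard error 0.49, edgeR adjusted P = 0.0276), or 3.01-fold with an interval from 1.48 to 6.12. The gene had 15 and 27 counts in these mutant libraries, against only 8, 11 and 9 in the wild type. By counting error alone, the 95% exact Poisson interval of Δ*cre1*-91 replicate 1 ran from 1.06 to 3.14 CPM. The intervals of wild-type replicates 1, 2 and 3, 0.319 to 1.46, 0.535 to 1.92 and 0.382 to 1.59 CPM, all overlap it. The call was not made without Δ*cre1*-91 replicate 2, where the log2 fold change was 1.10, nor without wild-type replicate 1, 2 or 3, where it was 1.48, 1.75 or 1.55. The edgeR adjusted P values of these 4 fits were 0.273, 0.106, 0.0516 and 0.0746, in a range from 0.0265 to 0.273 over all alternatives.

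CopciAB_477121 had the smallest adjusted P value of the 4 genes, under the label Δ*cre1*-91. It had 54.8 and 57.5 CPM in those libraries, against 21.5, 21.1 and 19.7 CPM in the wild type. Both groups were tight and far apart, with means of 56.1 ± 1.88 CPM (SD, n = 2) for Δ*cre1*-91 and 20.8 ± 0.974 CPM (SD, n = 3) for the wild type. The log2 fold change was 1.43 (standard error 0.21, edgeR adjusted P = 5.97e-05), or 2.70-fold with an interval from 2.00 to 3.65. It was called in all 7 fits that left out 1 library, with values from 1.40 to 1.46.

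Under the label Δ*cre1*-43, the libraries of CopciAB_477121 disagreed. Replicate 1 had 43.0 CPM and replicate 2 had 23.9 CPM, from 286 and 202 counts, so that only the first was well above the wild-type range of 19.7 to 21.5 CPM. The exact Poisson intervals of these CPM values, 38.1 to 48.2 and 20.7 to 27.4, do not meet, and the second includes wild-type values. The log2 fold change was 0.68 (standard error 0.21, edgeR adjusted P = 0.0358), which passed the limit on P, as 15.3% of all genes did, but not the 2-fold limit. Without replicate 1 it was 0.20, and without replicate 2 it was 1.03 and was called, so that 1 library decided this value.

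CopciAB_545459 was called higher for Δ*cre1*-91 and was not called for Δ*cre1*-43. Its counts were 65.5 and 82 for Δ*cre1*-91, 34 and 39 for Δ*cre1*-43, and 43, 56 and 38 for the wild type. The levels were 8.37 and 10.5 CPM for Δ*cre1*-91, 5.11 and 4.61 CPM for Δ*cre1*-43, and 3.97, 5.45 and 3.53 CPM in the wild type. The Δ*cre1*-43 values fell within the wild-type range, while both Δ*cre1*-91 values stood above it. For Δ*cre1*-91 the mean was 9.43 ± 1.50 CPM (SD, n = 2), against 4.32 ± 1.01 CPM in the wild type (SD, n = 3), and the log2 fold change was 1.13 (standard error 0.30, edgeR adjusted P = 0.0114). This is 2.18-fold with an interval from 1.42 to 3.36, which spans the 2-fold limit. The call was not made without Δ*cre1*-91 replicate 2, where the value was 0.96, nor without wild-type replicate 1 or 3, where it was 1.07 or 1.00. For Δ*cre1*-43 the mean was 4.86 ± 0.350 CPM (SD, n = 2), and the log2 fold change of 0.17 (standard error 0.32, edgeR adjusted P = 0.848) had an interval from -0.50 to 0.83.

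CopciAB_142396 was the only one of the 4 genes to be lower than the wild type. It had 4.96 and 3.07 CPM in the libraries labelled Δ*cre1*-43, 5.96 and 6.65 CPM in those labelled Δ*cre1*-91, and 11.4, 10.5 and 10.1 CPM in the wild type. All 4 mutant libraries lay below the wild type, without overlap. The means were 4.02 ± 1.33 CPM for Δ*cre1*-43 and 6.31 ± 0.490 CPM for Δ*cre1*-91 (SD, n = 2 each), against a wild-type mean of 10.7 ± 0.636 CPM (SD, n = 3). For Δ*cre1*-43 the log2 fold change was -1.42 (standard error 0.30, edgeR adjusted P = 0.00254), which is 2.68-fold lower. The call was made in all 7 fits that left out 1 library, with values from -1.79 without Δ*cre1*-43 replicate 1 to -1.12 without replicate 2. For Δ*cre1*-91 it was -0.76 (standard error 0.28, edgeR adjusted P = 0.0696), with an interval from -1.34 to -0.17, and it was not called.

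**Figure D2:**
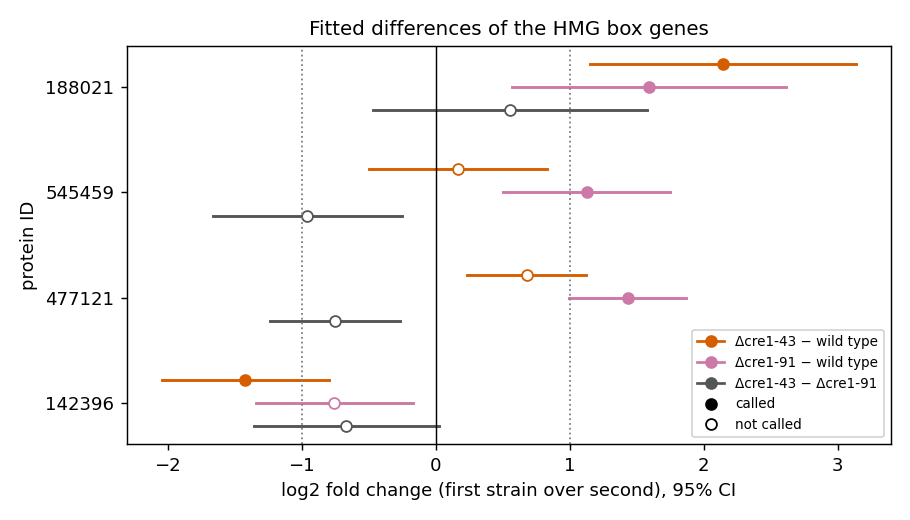
Fitted log2 fold changes of the 4 HMG box genes (x axis) for each protein ID (y axis), with 95% confidence intervals as lines; colours stand for the comparison, filled circles were called and open circles were not, and dotted lines mark the 2-fold limit. The 5 filled circles are CopciAB_188021 in both mutants, CopciAB_545459 and CopciAB_477121 for Δ*cre1*-91, and CopciAB_142396 for Δ*cre1*-43, while all 4 direct differences between the mutants are open.

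The mutants were also compared with each other. Because the genes were listed for their levels in these same mutant libraries, the values are a description, and nothing is read from the shares. By edgeR, 0 of the 4 genes were called, where 0.246% of all genes were called, and none was called in the 7 fits without 1 library and the 9 other alternatives run for single genes. An unadjusted P value below 0.05 was found for 2 of the 4, and for 11.2% of all genes. These 2 were CopciAB_545459 and CopciAB_477121, with smaller values in both Δ*cre1*-43 libraries than in both Δ*cre1*-91 libraries. Their log2 differences were -0.96 (standard error 0.34, interval from -1.66 to -0.25, edgeR adjusted P = 0.257) and -0.75 (standard error 0.23, interval from -1.24 to -0.27, edgeR adjusted P = 0.173). The value of CopciAB_477121 was -1.23 without Δ*cre1*-43 replicate 1 and -0.40 without Δ*cre1*-43 replicate 2. CopciAB_142396 had a log2 difference of -0.67 (standard error 0.33, interval from -1.36 to 0.024, edgeR adjusted P = 0.468). CopciAB_188021 had the opposite sign, 0.55 (standard error 0.49, interval from -0.47 to 1.58, edgeR adjusted P = 0.770), and ranged from 0.21 without Δ*cre1*-91 replicate 1 to 1.03 without Δ*cre1*-91 replicate 2.

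The calls in 1 mutant only, those of CopciAB_545459, CopciAB_477121 and CopciAB_142396, are thus not shown to differ between the mutants after adjustment. In both libraries of one label all 4 genes stood apart from both libraries of the other, which was so for 33.4% of all genes. The levels of CopciAB_188021 ran from Δ*cre1*-43 over Δ*cre1*-91 to the wild type, and those of CopciAB_545459 and CopciAB_477121 from Δ*cre1*-91 over Δ*cre1*-43 to the wild type. For CopciAB_142396 the wild type was highest and Δ*cre1*-43 lowest. In none of these orders did the 2 mutants differ by an adjusted P value of 0.05, and the middle group did not pass against the wild type for CopciAB_545459 and CopciAB_142396.

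When the 4 mutant libraries were set together against the 3 wild-type libraries, 3 of the 4 genes were called, where 7.81% of all genes were. The log2 fold changes were 1.87 for CopciAB_188021 (standard error 0.42, edgeR adjusted P = 0.00290), 1.06 for CopciAB_477121 (standard error 0.18, edgeR adjusted P = 0.000283) and -1.09 for CopciAB_142396 (standard error 0.23, edgeR adjusted P = 0.00187). CopciAB_545459 had 0.65 (standard error 0.26, edgeR adjusted P = 0.0868). The per-gene edgeR estimates of replicate variation beyond counting error ran from 17.4% to 25.6%, highest for CopciAB_188021. They are drawn towards a trend over all genes and are not the spread of each gene's own replicates.

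**Figure D3:**
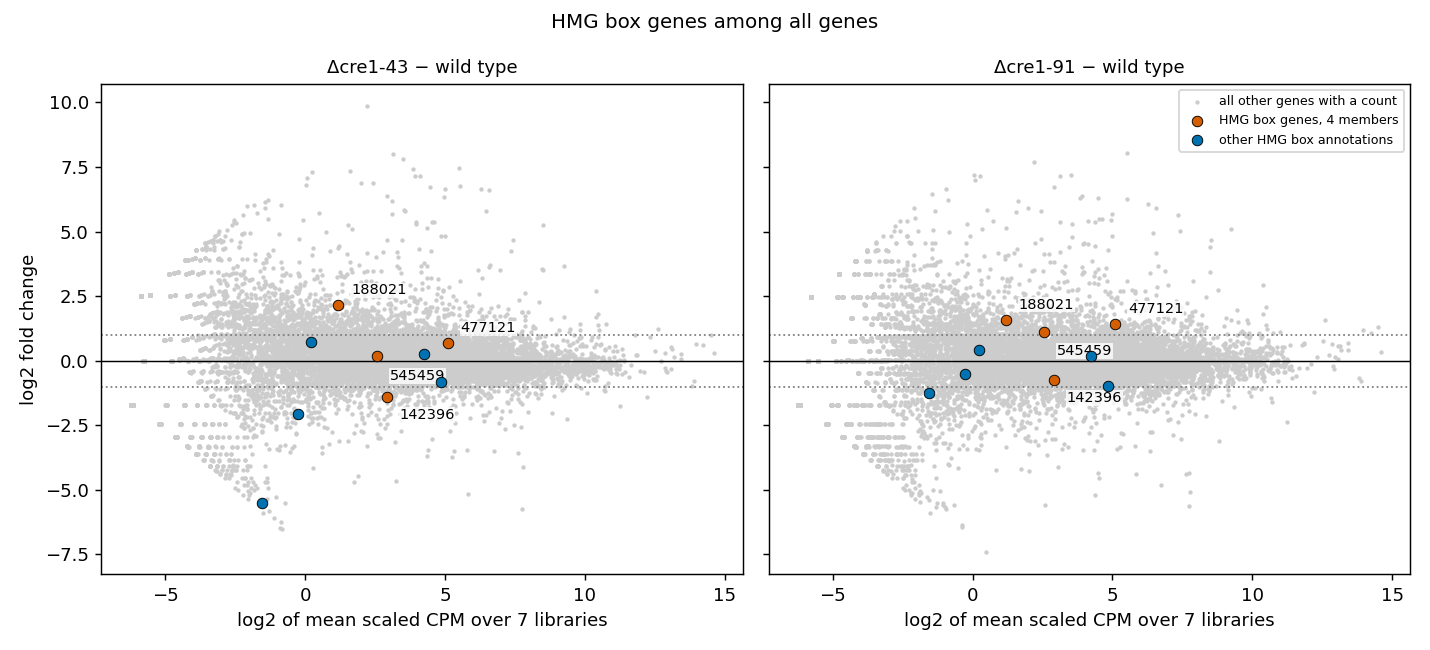
Log2 fold change (y axis) against the log2 of the mean scaled CPM over 7 libraries (x axis) for all genes with a count (grey), the 4 HMG box genes (orange, with protein IDs) and 5 other genes with an HMG box annotation (blue), for each mutant over the wild type; dotted lines mark 2-fold. The 4 genes lie between -1.42 and 2.14, inside the cloud of all genes, and the lowest blue point is CopciAB_268422, whose fitted value is no bound because its rounded counts in Δ*cre1*-43 are 0.

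The part of the domain annotation used here, together with the transcription factor table, names 5 further genes with an HMG box. Apart from CopciAB_268422 they are not in the table of listed genes, so that few calls among them follow from how the lists were divided. Of these 5, 0 were called in either mutant by edgeR, where 6.97% and 8.32% of all genes were called, so that nothing is read from this count. An unadjusted P value below 0.05 was found for 2 in Δ*cre1*-43 and for 1 in Δ*cre1*-91. With limma voom and with the counts left unrounded, CopciAB_268422 was called under the label Δ*cre1*-43 (adjusted P = 0.0101 and 0.0462). Over all genes, 26.9% and 28.7% had an unadjusted P value below 0.05. The 5 genes had median log2 fold changes of -0.83 and -0.51, against 0 over all genes tested. The first was -0.63 with CopciAB_268422 set to 3 counts in the Δ*cre1*-43 libraries. Of the 5, 2 had positive fold changes under both labels.

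CopciAB_351135, annotated with an HMG box and as a YABBY protein, had the smallest adjusted P values of these 5. It had 22.8 and 21.4 CPM in the libraries labelled Δ*cre1*-43, 19.2 and 20.7 CPM in those labelled Δ*cre1*-91, and 33.0, 49.4 and 35.6 CPM in the wild type. All mutant libraries lay below all wild-type libraries, and wild-type replicate 2 was the highest. For Δ*cre1*-43 the log2 fold change was -0.83 (standard error 0.21, edgeR adjusted P = 0.00916) and for Δ*cre1*-91 it was -0.98 (standard error 0.21, edgeR adjusted P = 0.00235), where 17.6% of all genes passed the limit on P. Both fell short of 2-fold. The second was called at -1.06 with scaling by library size only, and at -1.03, -1.09 and -1.04 without Δ*cre1*-91 replicate 2, wild-type replicate 1 and wild-type replicate 3, and was -0.78 without wild-type replicate 2. The first missed the limit on P without Δ*cre1*-43 replicate 1 or 2 (edgeR adjusted P = 0.0671 and 0.0886), without wild-type replicate 2 (-0.63, edgeR adjusted P = 0.0515) and with limma voom (adjusted P = 0.0529). Its coding sequence, on scaffold 7, is 213 bases long, the shortest of the 9 HMG box genes.

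**Figure D4:**
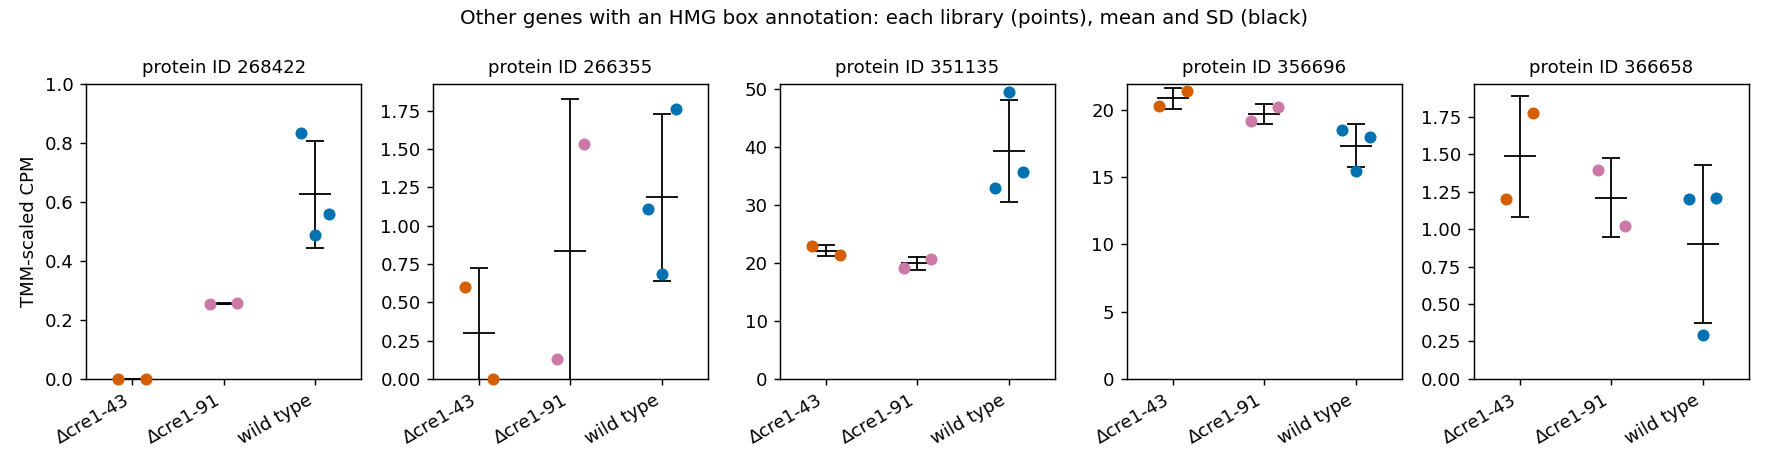
Levels of the 5 other genes with an HMG box annotation in each library, as TMM-scaled CPM (linear axis from 0), with 1 panel per protein ID; coloured points are libraries, the black dash is the group mean and the bars are the SD (n = 2, 2 and 3). The mutant libraries of CopciAB_351135 lie at 19.2 to 22.8 CPM, below the wild type at 33.0 to 49.4 CPM, and those of CopciAB_356696 at 19.2 to 21.4 CPM, above the wild type at 15.5 to 18.5 CPM. With each mutant taken alone, 41.4% (Δ*cre1*-43) and 43.7% (Δ*cre1*-91) of all genes had libraries that did not overlap with the wild type.

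None of the other 4 passed the limit on P in either mutant by edgeR. CopciAB_356696 had 20.8 ± 0.797 CPM for Δ*cre1*-43 and 19.7 ± 0.753 CPM for Δ*cre1*-91 (SD, n = 2 each), against 17.3 ± 1.61 CPM in the wild type (SD, n = 3). It had log2 fold changes of 0.27 and 0.18 (edgeR adjusted P = 0.453 and 0.637). CopciAB_268422 had 0.25 and 0 counts in the Δ*cre1*-43 libraries, 1.5 and 2 in the Δ*cre1*-91 libraries, and 9, 5.25 and 6.33 in the wild type. Taking 3 counts in a library as the floor, its wild-type mean stood 1.55-fold above the Δ*cre1*-43 floor (edgeR adjusted P = 0.0631 for the fitted difference). This value makes no allowance for counting error in the wild type and is not a lower limit. For Δ*cre1*-91 the log2 fold change of CopciAB_268422 was -1.25 (standard error 1.14, interval from -3.64 to 1.14, edgeR adjusted P = 0.534). A model on the opposite strand, CopciAB_357422, shares 651 bases with CopciAB_268422, and fractions of a read make up part of the counts of CopciAB_268422. CopciAB_357422 had means of 11.5 CPM for Δ*cre1*-43, 13.6 CPM for Δ*cre1*-91 and 22.4 CPM in the wild type. Its log2 fold changes were -0.96 and -0.72 (edgeR adjusted P = 0.00581 and 0.0277), both short of 2-fold. Whether its reads enter the counts of CopciAB_268422 was not tested.

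CopciAB_266355 and CopciAB_366658 had few reads. CopciAB_266355 had 4 and 0.2 counts in the Δ*cre1*-43 libraries, 1 and 12 in the Δ*cre1*-91 libraries, and 12, 7 and 19 in the wild type. Its log2 fold change for Δ*cre1*-43 was -2.06 (standard error 1.12, edgeR adjusted P = 0.246), stayed negative in every fit without 1 library and was -0.98 without Δ*cre1*-43 replicate 2. For Δ*cre1*-91 it was -0.51 (standard error 0.91, edgeR adjusted P = 0.821) and turned to 0.33 without Δ*cre1*-91 replicate 1. CopciAB_366658 had 8 and 15 counts in the Δ*cre1*-43 libraries, 11 and 7.5 in the Δ*cre1*-91 libraries, and 13, 3 and 13 in the wild type. Its log2 fold change was 0.72 (standard error 0.67) for Δ*cre1*-43 and 0.41 (standard error 0.69) for Δ*cre1*-91. A difference of either gene was not detectable with these counts and this spread between replicates.

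Histones, the proteins that package DNA and that HMG box proteins meet in chromatin, gave a second list from the same annotation. Of 8 histone genes, 0 were called by edgeR under the label Δ*cre1*-43, where 6.97% of all genes were called, while 7 had an unadjusted P value below 0.05, as 26.9% of all genes did. Under the label Δ*cre1*-91, 2 were called lower, where 3.35% of all genes were called lower, and 6 had an unadjusted P value below 0.05, as 28.7% of all genes did. Their median log2 fold changes were -0.55 and -0.61, against 0 over all genes tested, and 0 and 1 of the 8 were positive. That 1 gene, CopciAB_154410 (histone H3/CENP-A), was at 0.016, and with scaling by library size only none of the 8 was positive. The number called stayed at 0 and 2 with both other scalings.

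The histone genes called were CopciAB_363625 (histone H2A) and CopciAB_320458 (histone H4). CopciAB_363625 had 53.1 and 54.3 CPM under the label Δ*cre1*-91, 85.6 and 84.0 CPM in the Δ*cre1*-43 libraries, and 127, 152 and 121 CPM in the wild type, with log2 fold changes of -1.31 for Δ*cre1*-91 and -0.65 for Δ*cre1*-43 (edgeR adjusted P = 2.08e-05 and 0.0112). CopciAB_320458 had log2 fold changes of -1.02 for Δ*cre1*-91 and -0.65 for Δ*cre1*-43 (edgeR adjusted P = 0.000131 and 0.00728), and without wild-type replicate 2 the first was -0.93 and was not called. The other H4 gene, CopciAB_324852, has a coding sequence of the same 288 bases in length on the same scaffold, and both hold fractions of a read, so that the division of reads between them is uncertain. A model on the opposite strand shares 552 bases with CopciAB_363625.

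The nearest gene models beside the 4 genes were examined for shared differences. CopciAB_187972, whose coding sequence lies 181 bases downstream of that of CopciAB_188021, had 23.3 and 28.3 CPM in the Δ*cre1*-43 libraries and 28.2 and 19.1 CPM in the Δ*cre1*-91 libraries, against 38.4, 32.4 and 35.9 CPM in the wild type. Its log2 fold changes were -0.46 and -0.59 (edgeR adjusted P = 0.144 and 0.0517), opposite in sign to those of CopciAB_188021. CopciAB_107791, the downstream neighbour of CopciAB_545459, had -0.20 and -0.19 (edgeR adjusted P = 0.569 and 0.573), and leaving out Δ*cre1*-91 replicate 2 turned the second to 0.014. The upstream neighbour of CopciAB_545459, CopciAB_465804, lies on the opposite strand with 278 bases between the coding sequences, and had at most 2 counts in any library.

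The neighbours of CopciAB_477121 were hardly detected, with at most 1 count for CopciAB_468580 and at most 13 counts for CopciAB_468582 in any library. Beside CopciAB_142396, CopciAB_433737 had log2 fold changes of 0.52 and 0.71 (edgeR adjusted P = 0.230 and 0.0729) and CopciAB_379071 had -0.63 and -0.86 (edgeR adjusted P = 0.166 and 0.0489). None of the 7 neighbours was called in either mutant, where 6.97% and 8.32% of all genes were called. CopciAB_379071 under the label Δ*cre1*-91 passed the limit on P but not the 2-fold limit, where 17.6% of all genes passed the limit on P.

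To find genes with a like pattern, the Pearson correlation of log2 CPM over the 7 libraries was ranked among 9923 genes with a mean of at least 1 CPM. The 7 libraries fall into 3 strains, so that these values mostly show a like order of the strains, and they are a description of the top of a long ranking. CopciAB_188021 was most like CopciAB_370319, annotated as an epoxide hydrolase (r = 0.994), CopciAB_89509 (r = 0.994) and CopciAB_423733 (r = 0.993). CopciAB_545459 was most like CopciAB_471212 (r = 0.981), CopciAB_286471 (r = 0.979) and CopciAB_475682 (r = 0.973). CopciAB_477121 was most like CopciAB_477342, CopciAB_462436 and CopciAB_371937 (r = 0.988, 0.988 and 0.987). CopciAB_142396 was most like CopciAB_374918 (r = 0.994), a gene of the AA9 lytic polysaccharide monooxygenases that cleave cellulose. Next came CopciAB_356352, annotated as a UAA transporter (r = 0.990), and CopciAB_444878 (r = 0.988). The study reports higher levels in the mutants for nearly all AA9 genes that it found to differ. CopciAB_374918 went the other way, with means of only 0.419 CPM for Δ*cre1*-43, 0.956 CPM for Δ*cre1*-91 and 1.91 CPM in the wild type. The first is near the floor of 3 counts, 0.451 and 0.355 CPM in these libraries, so its r rests on few reads. With any single library left out, these 12 correlations stayed between 0.947 and 0.999. The pairs were picked for the highest r over these same libraries, so this range is no check of the likeness.

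**Figure D5:**
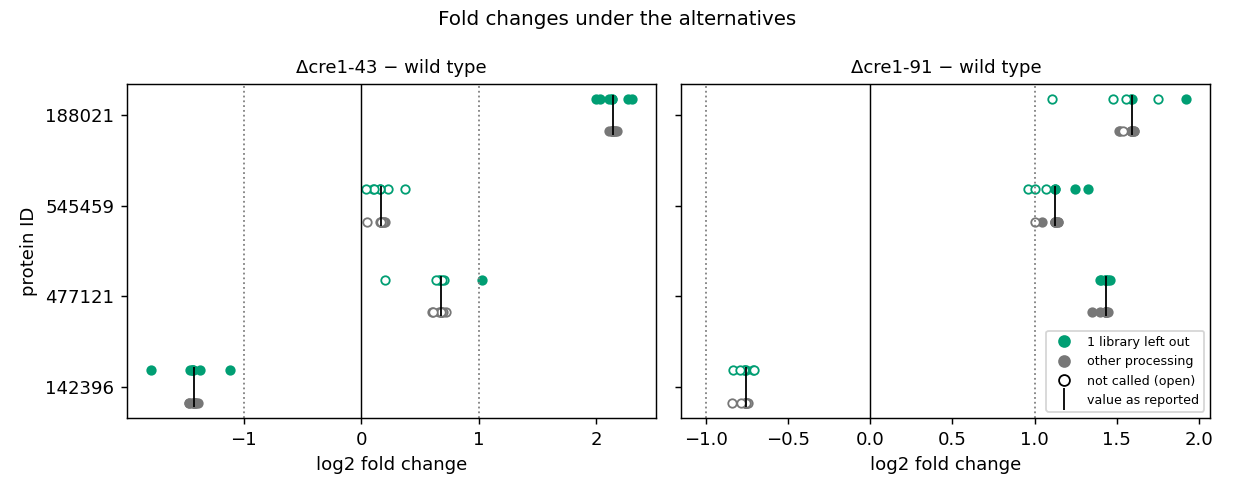
Log2 fold changes (x axis) of the 4 HMG box genes (y axis, protein IDs) under the alternatives, for Δ*cre1*-43 and Δ*cre1*-91 over the wild type; green points are fits without 1 library, grey points are other tools, scalings, filters or models, open points were not called, black bars are the values as reported and dotted lines mark 2-fold. No point of the 4 genes crosses 0, while green points of CopciAB_188021 and CopciAB_545459 for Δ*cre1*-91 are partly open and those of CopciAB_477121 for Δ*cre1*-43 spread from 0.20 to 1.03.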

How the data were processed

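Reads had been trimmed, mapped to the JGI genome with STAR 2.6.1a and assigned by the authors, with featureCounts, to coding sequences plus a 400-bp 3′ overhang. The strand setting is not given in the sources used here. The deposited values are estimated counts, and 20.3% of them are not whole. They were rounded here, and edgeR was also run on the values left unrounded as an alternative. The scaled signal values that the authors also deposited equal the counts per 1000000 counts of TMM-scaled library size (CPM) and were used as a check only.

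All 14242 genes and 7 libraries entered one fit with a coefficient per strain in edgeR 4.0.16 under R 4.3.3 (TMM, estimateDisp, glmQLFit, glmQLFTest), with Benjamini-Hochberg adjustment over all genes. Standard errors are the unshrunk log2 fold change divided by the square root of F, and 95% intervals use its t quantile. Depth was 6232853 to 10784958 assigned counts. Poisson intervals and floors of 3 counts cover counting error only. Replicates of a strain differed more than counting error (chi-square over its degrees of freedom 11.8 to 20.2), so none was a copy. Alternatives used DESeq2 1.42.0, limma 3.58.1 voom, other scalings, a low-count filter, unrounded counts, smaller fits, a robust prior, a replicate block and each library left out. The code was tested on simulated data.

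The members and lists were chosen with earlier results of these data known. Named are the 4 genes, *cre1*, the other annotated HMG box genes, called histone genes, the gene models next to each member and the 3 most similar genes of each. Histone genes CopciAB_154410 and CopciAB_324852, the overlapping model CopciAB_357422 and the epoxide hydrolase and transporter annotations were added after the values were seen. The annotation table was held only in part.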

Additional observations from a re-analysis of the deposited data

How the results depend on the processing

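For the 4 HMG box genes and the 4 comparisons, no alternative reversed a direction, and 255 of 268 values kept their side of the limits, 11 lost a call and 2 gained one. Under the label Δ*cre1*-91, a replicate block (1.54 for CopciAB_188021 and 1.00 for CopciAB_545459, edgeR adjusted P = 0.119 and 0.0677) ended these 2 calls. Same-numbered libraries of different strains had correlations of deviations from -0.21 to 0.15. Deviations were taken from the strain mean, so those of the 2 libraries of a mutant mirror each other. These values therefore cannot decide whether same-numbered libraries were handled together. Because the mutant numbers correlated negatively, a block with the Δ*cre1*-91 numbers crossed, chosen after seeing the data, was run and called 161 genes between the mutants. For CopciAB_188021 and CopciAB_545459 under the label Δ*cre1*-91, values with 1 library left out ranged from 1.10 to 1.92 and from 0.96 to 1.33. For CopciAB_477121 under the label Δ*cre1*-43 they ranged from 0.20 to 1.03, and it was called at 0.68 without a fold limit. For the 4 mutant libraries together they ranged from 0.82 to 1.23 for CopciAB_477121, not called without Δ*cre1*-43 replicate 1, and from -1.27 to -0.94 for CopciAB_142396, not called without Δ*cre1*-43 replicate 2.

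Without a fold limit 2178, 2508 and 3057 genes were called for Δ*cre1*-43, Δ*cre1*-91 and all mutant libraries, against 993, 1185 and 1113 with it. The direct comparison of the mutants called 35 genes, 106 with scaling by library size only, 72 with DESeq2, 0 with limma voom, 0 in edgeR after filtering low counts (1594 at an unadjusted P below 0.05 without the filter), 74 unrounded, 101 with only the groups compared, 53 with a replicate block and 0 to 105 with 1 library left out. Scaling by library size only gave 622 higher and 617 lower genes for Δ*cre1*-91, against 708 and 477 with TMM, and 93 higher and 13 lower between the mutants, against 25 and 10 with TMM. It moved the median difference between the mutants, over genes of at least 1 CPM, to 0.12, against 0.0054. Values that changed sign included 0.016 of CopciAB_154410 for Δ*cre1*-91 (negative with scaling by library size only), -0.14 of *cre1* (CopciAB_466792) for Δ*cre1*-43, which was 0.029 with a replicate block and ranged from -0.25 to 0.024 with 1 library left out, and, for Δ*cre1*-91, -0.51 of CopciAB_266355 and -0.19 of CopciAB_107791, which ranged from -3.09 to 0.33 and from -0.46 to 0.014. The cause of these changes was not tested. With 2 libraries per mutant and 8 to 30 reads for CopciAB_188021 in each library, smaller differences of such a gene were not detectable.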
